A study of Mus musculus with 11 samples.

Results

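The wild type of this series consists of 4 RNA sequencing libraries of mesenchymal stromal cells from the bone marrow of C57/BL6 mice, out of 11 libraries in all. They were taken by their genotype label, and no measured value was used to choose them. The other libraries came from the same strain and cell type and carried a knockout of ANXA2 (3 libraries) or of ANXA5 (4 libraries), 2 calcium-dependent membrane-binding proteins of the annexin family. All 11 libraries were untreated primary material, and the labels give neither age nor passage, nor how the cells were isolated. The labels do not say whether the 4 wild type libraries came from separate mice or cultures, so the spread between them may be technical in part. With 1 genotype described there was no contrast, and every value below is a description of these 4 libraries. Values were read in 19801 genes, the number in the table that the wild type shares with the ANXA5 knockout, and a gene had to be listed there to be described.

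Bone marrow mesenchymal stromal cells are adherent, non-blood cells of the marrow that can form bone, fat and cartilage. In the marrow they also form the niche of blood stem cells, by secreting factors such as the chemokine Cxcl12 and stem cell factor, encoded by Kitl. Stromal preparations from marrow can carry blood cells along, because macrophages and other blood cells adhere to plastic and to the stroma.

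The reads counted over the listed genes came to 23.3, 29.2, 23.5 and 27.2 M in libraries 1 to 4. A value below is a normalised read count, that is, reads divided by the size factor of the library (0.863, 1.10, 0.778 and 0.951). Normalised reads compare 1 gene between libraries. To compare genes with each other, values were divided by exon length and scaled to ppm of the summed levels of a library. Spread is the SD over the 4 libraries of log2 (value + 1), and it was ranked in the 12952 genes with a mean of at least 50 normalised reads. Libraries 1 and 2, and libraries 3 and 4, were the closest pairs. Of the ranked genes, 220 differed by at least 2-fold between libraries 1 and 2, 208 between 3 and 4, and 816 between 1 and 4. The libraries also differed by base composition of the genes. Across 12936 genes, the deviation of a library from the gene's mean had a Spearman correlation with GC content of -0.34, -0.30, 0.25 and 0.37 in libraries 1 to 4, and with transcript length of -0.21, -0.09, 0.38 and -0.06. These are descriptions across genes, which share the libraries and are not independent. Deviations with that trend removed stand beside the results below as trend-adjusted values.

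**Figure D1:**
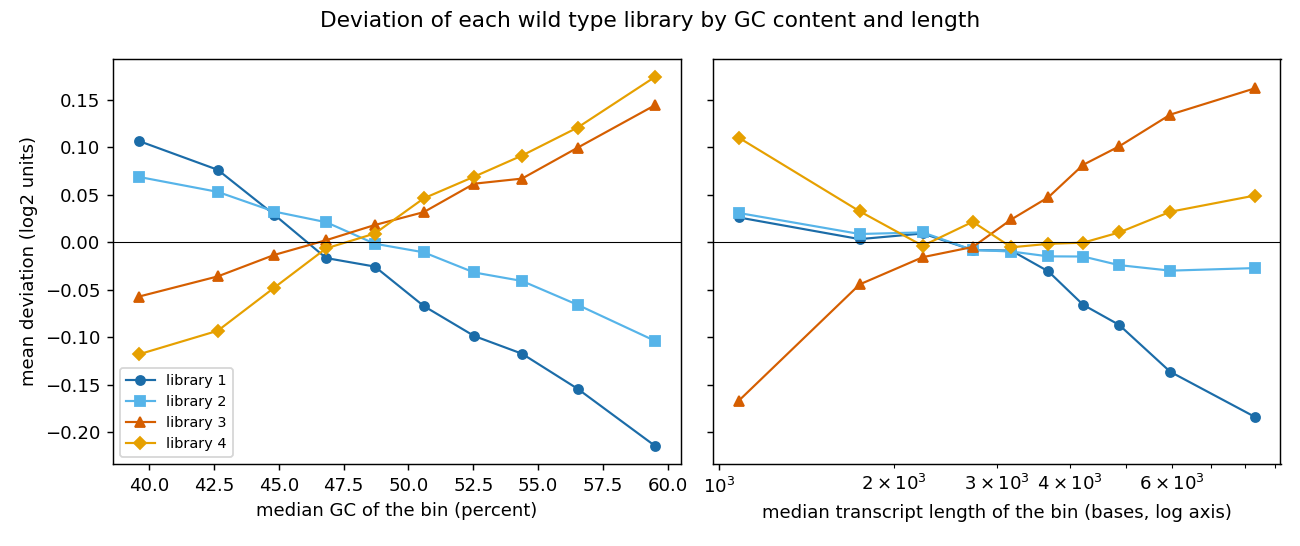
Mean deviation of each wild type library from the gene's mean over 4 libraries (log2 units) in 10 equally filled bins of GC content (left, percent) and of transcript length (right, bases, log axis); each point is 1 bin in 1 library. In the bin of highest GC content the deviations were -0.21, -0.10, 0.14 and 0.17 in libraries 1 to 4, and in the bin of lowest GC content 0.11, 0.07, -0.06 and -0.12.

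The 5 markers given for these cells were all present and abundant. Gsn (ENSMUSG00000026879.15, chromosome 2), which encodes the actin-severing protein gelsolin, had 1411877, 1068239, 1338264 and 1035384 normalised reads in libraries 1 to 4. Col3a1 (ENSMUSG00000026043.19, chromosome 1), a fibrillar collagen of soft connective tissue, had 629746, 658297, 997132 and 1063993. Cxcl12 (ENSMUSG00000061353.12, chromosome 6), the chemokine that holds blood stem cells in the marrow, had 18055, 18929, 20443 and 19865. The values of Cxcl12 were close to each other in all libraries, while Gsn was lower in libraries 2 and 4 and Col3a1 was lower in libraries 1 and 2. Pdgfrb (ENSMUSG00000024620.12), a growth factor receptor of mesenchymal cells, had 6770.4, 8324, 10182 and 9088. Mpo (ENSMUSG00000009350.14, chromosome 11), the peroxidase of neutrophil granules and not a stromal gene, had 32901, 35156, 40956 and 69203. Library 4 thus had the highest Mpo value, apart from the other 3. Stromal genes and a blood cell gene were thus both abundant among the 5 markers in all 4 libraries. The label of mesenchymal stromal cells was not tested by them. Over the lists given below, neutrophil genes summed to 50634 ppm and stromal surface markers to 4083 ppm. In bulk RNA, more or fewer cells of a type and more or less RNA per cell cannot be told apart.

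Reads were concentrated in few genes. The 10 most abundant genes held 13.7% ± 1.29 of the reads (SD, n = 4 libraries), the 100 most abundant 29.0% ± 1.43 and the 1000 most abundant 57.7% ± 1.24. The median gene of the table had 250.1 normalised reads, 365 genes had at least 10000 and 3567 had fewer than 10. Protein-coding genes held 98.7% ± 0.304 of the reads. Gsn alone held 4.33%, with a mean of 1213441 ± 189513 normalised reads (SD, n = 4). It was followed by Col3a1 with 837292 ± 225134, and by Fn1, which encodes the matrix glycoprotein fibronectin, with 477441 ± 214442. The 2 chains of type I collagen, Col1a2 and Col1a1, came next with 281706 ± 60790.3 and 267135 ± 141636. The order of these 5 genes was not the same in each library: Gsn was the highest gene in libraries 1 to 3, while in library 4 Col3a1 lay above it.

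**Figure D2:**
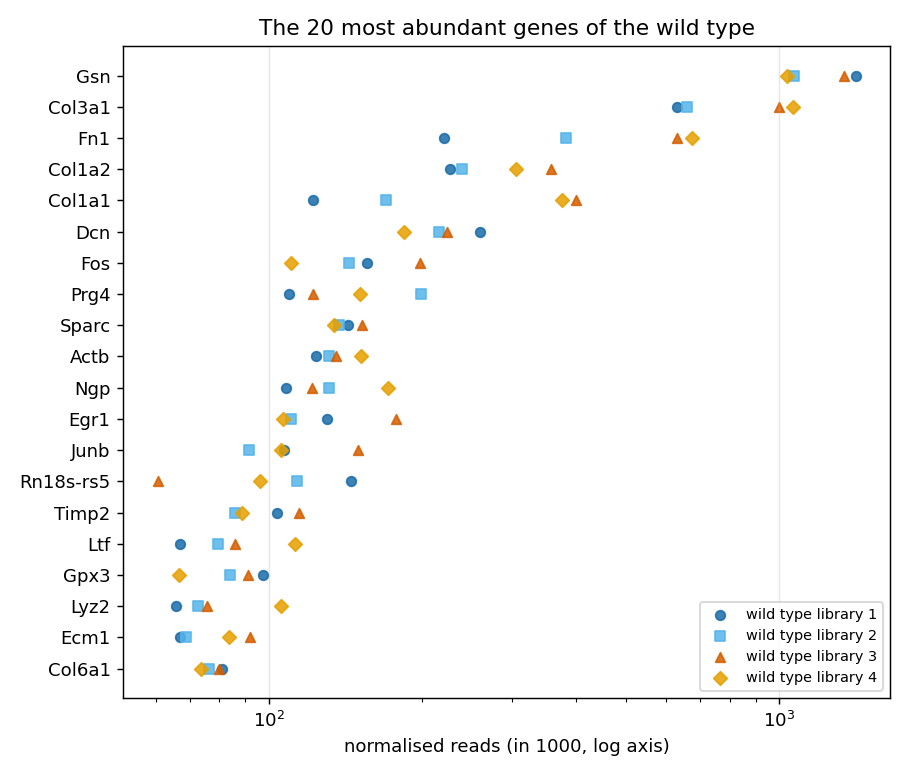
Normalised reads (in units of 1000, log axis) of the 20 genes with the highest mean over the wild type libraries; each point is 1 library. Fn1 and Col1a1 had low points in libraries 1 and 2, whereas the 4 points of Sparc and of Col6a1 lay close together.

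Among the rest of the 20 most abundant genes, matrix and secreted proteins were the largest part. Dcn, the proteoglycan decorin, had 258826, 215647, 223818 and 183815 normalised reads, and Sparc, a collagen-binding protein of bone matrix, had 142874, 137003, 151963 and 134211. Prg4, the lubricin of joint surfaces and tendon sheaths, had 109619, 198779, 122007 and 150667. Dcn was lowest in library 4, Sparc was nearly level and Prg4 was highest in library 2. Timp2, an inhibitor of matrix metalloproteases, had a mean of 98114 ± 13532, the selenium-dependent plasma peroxidase gene Gpx3 84818 ± 13225, the extracellular matrix protein gene Ecm1 77748 ± 11970.1 and Col6a1, a chain of type VI collagen, 77706 ± 3347. The rest of the list was of other kinds: the transcription factor genes Fos, Egr1 and Junb, the neutrophil and macrophage genes Ngp, Ltf and Lyz2, and the cytoskeletal gene Actb. Rn18s-rs5, a repeat related to the 18S ribosomal RNA, was also listed, with 144752, 113525, 60649 and 95927. Its reads cannot be separated from those of other ribosomal copies.

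Per exon length the order changed, and short blood cell genes moved up. Gsn remained first with 49528 ± 7791 ppm (SD, n = 4). The neutrophil genes Ngp, of a granule protein related to cathelicidins, and S100a9, a calcium-binding protein of neutrophil cytosol, were next with 13992 ± 2647 and 13761 ± 4538 ppm. Col3a1 had 10919 ± 2576 ppm, Fos 8310.0 ± 1896 ppm and Lyz2, the lysozyme of macrophages and granulocytes, 7799.8 ± 1539 ppm. Ftl1 (ferritin light chain), Actb, Junb and S100a8 completed the 10 highest with 6585, 6504, 6322 and 6165 ppm. Of the 20 highest genes by mean normalised reads, 13 were also among the 20 highest per length. With the longest transcript in place of the summed exons, 9 of the 10 highest per length were the same.

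Collagen and matrix genes made up a large summed level, and the collagens were uneven between libraries. The 14 collagen chains listed summed to 24753 ± 6153 ppm (SD, n = 4), with 18476, 20473, 30263 and 29801 in libraries 1 to 4. Libraries 3 and 4 were the high ones. Of these chains, 9 had their highest value in library 3, against 27.7% of all ranked genes, and 9 their lowest in library 1, against 32.1%. Col1a1 had 122060.4, 169845, 400576 and 376058 normalised reads, Col4a1, of the basement membrane, 22452, 27968, 53627 and 48669 and Col6a3 11584, 18541, 34888 and 38682. In all 3 genes libraries 3 and 4 lay well above libraries 1 and 2. Col6a1 lacked this pattern, with a spread of 0.06. Col18a1, whose product yields endostatin, had the largest spread of the chains at 0.91, with 2313, 4647, 5313 and 10831. The mean log2 deviation of the chains was -0.43, -0.22, 0.34 and 0.31 in libraries 1 to 4 and -0.24, -0.13, 0.14 and 0.23 as trend-adjusted values.

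The 26 other matrix genes summed to 31760.2 ± 1018 ppm and were nearly level between libraries, with 30995, 31506, 33255 and 31285. Single members differed more than the sum. Fn1 had 220277, 382718, 631723 and 675045 normalised reads and Fbn1, the microfibril protein fibrillin-1, 28221, 31047, 70578 and 61932. Both were higher in libraries 3 and 4. Ogn, the small proteoglycan osteoglycin, was higher in libraries 1 and 3, with 15574, 8365, 12613 and 6141, and its spread of 0.60 stood against a median of 0.23 over the list. Mmp14, a membrane-bound metalloprotease, had 15943, 14829.7, 14929 and 15350.1 and a spread of 0.05. Tnc, the adhesion-modulating protein tenascin C, had 1732, 3266, 3840.4 and 5839.8.

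Genes of the cytoskeleton formed the highest summed level of the lists used, at 70200.4 ± 7001 ppm, with Gsn as the main part. The genes of 3 large proteins were higher in libraries 3 and 4. Flna, the actin cross-linker filamin A, had 16067, 20518, 40764 and 44554 normalised reads, Tln1, which couples integrins to actin, 5126, 7951, 16801 and 18705 and Myh9, non-muscle myosin heavy chain, 3065, 5038, 12895 and 15125. Myh9 was the member with the largest spread, 1.10, and 0.89 as trend-adjusted value. Actb had 123625, 131085, 135319 and 151501 and a spread of 0.12.

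Surface markers used to define mesenchymal stromal cells were all listed, 16 of 16, and summed to 4083 ± 401 ppm. Pdgfra, a growth factor receptor of mesenchymal progenitors, had 21389.9, 24641, 26876 and 22554 normalised reads. Ly6a, which encodes Sca-1 and is also on blood stem cells, had 23945, 19509.8, 15413 and 18844, and the integrin gene Itgb1 had 18645, 16559, 17249.7 and 15326. Ly6a was highest in library 1 and Pdgfra in library 3, without wide gaps. Vcam1, an adhesion molecule of niche stroma, had a mean of 3633 ± 338. Nt5e (CD73), Eng (CD105) and Thy1 (CD90), the trio commonly used to define cultured stromal cells, had means of 1915 ± 409, 1822 ± 433 and 556 ± 30.5. Nt5e and Eng were both lowest in library 1, and Thy1 had a spread of 0.08. Ngfr (CD271), a marker of fresh marrow stroma, was low with 68.4, 39.02, 48.9 and 25.2. The adhesion genes Mcam (CD146) and Alcam (CD166) had 109.7 and 178. Per length, Ly6a was highest among these markers at 2084 ppm, Pdgfra had 307, Pdgfrb 202, Eng 57.7, Nt5e 28.6, Thy1 23.9 and Ngfr 1.703 ppm. None of the 15 surface markers with a mean of at least 50 reads had a spread of 1 or more. That share is near the background, since 0.679% of all ranked genes had such a spread. The median spread of the markers was 0.249, against 0.190 over all ranked genes. The mean deviation of the list stayed between -0.08 and 0.05.

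Factors by which stroma supports blood formation were all listed, 13 of 13, with a sum of 1405 ± 79.9 ppm. Cxcl12 had a spread of 0.08, and 0.02 as trend-adjusted value. In the ANXA5 knockout libraries, which were not used to describe it, its spread was 0.46. Lepr, the leptin receptor that marks perivascular niche cells, had 5653, 3738, 4761 and 3997 normalised reads. Csf1, the growth factor of macrophages, had 8668, 7188, 11871 and 9678 and Igf1, insulin-like growth factor 1, 9302, 8886, 7888 and 6565. Kitl had 572, 635, 482 and 635, Angpt1, the ligand of the receptor Tie2, 1625, 1199.5, 1143 and 913 and Il7, the cytokine of lymphoid progenitors, 127, 169.7, 117 and 114. Per length, Cxcl12 had 304 ± 10.5 ppm, Lepr 82.9 ± 16.04, Kitl 12.7 ± 1.83 and Il7 3.02 ± 0.704 ppm. Tgfb1, a growth factor of many cell types, was the niche gene with the largest spread, 0.76. It had 1311, 2058, 3665 and 4012, low in library 1 and high in libraries 3 and 4.

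Stromal transcription factor genes were listed in 17 of 18 cases, and Tcf21 was not in the table. Ebf1 and Foxc1, factors that maintain niche cells, had means of 6141 ± 832 and 3129 ± 636, and Ebf1 is also a B cell factor. Ebf3 had 514 ± 83.8. Prrx1 and Twist1, of limb and trunk mesenchyme, had 4038 ± 639.7 and 1687 ± 190.0. Runx1, of blood stem cells and also of stroma, had 2999 ± 122 with a spread of 0.06. The posterior homeobox gene Hoxc10 had 385, 357, 373 and 367, nearly level. Pitx1, which specifies hindlimb identity, had 604, 313, 668 and 87.3, with library 4 far below libraries 1 and 3. Its spread of 1.34 was the largest of the list.

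Genes of the 3 mesenchymal lineages were listed at widely different levels. In the osteoblast list, which also holds Col1a1, 13 of 14 genes were listed and Sost, of osteocytes, was not. Spp1 (osteopontin) had 3511, 5458, 4590.2 and 6236 normalised reads and Ibsp (bone sialoprotein) 1421, 2959.8, 2087 and 1946. Both matrix genes were lowest in library 1. The regulator genes Runx2 and Sp7 had means of 415 ± 70.1 and 55.03 ± 6.75, the alkaline phosphatase gene Alpl 889 ± 263, and Bglap (osteocalcin), which shares sequence with a near-identical copy and is uncertain, had 88.1, 73.5, 176 and 318. Dmp1, of osteocytes, had 33.6.

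In the adipocyte list, 12 of 14 genes were listed, and Plin1 and Lep were not in the table. Cebpb, an early regulator of fat formation that many cells use, had 26456, 26030.0, 40697 and 38214 normalised reads, and Apoe, a lipid carrier also made by macrophages, 8489.9, 8865, 8391 and 7629. Lpl (lipoprotein lipase) had 6134, 4874, 5353 and 4575. The master regulator gene Pparg had 194, 291, 211 and 265 and Cebpa 367, 403, 679 and 829. Adipoq (adiponectin) had 101, 169.7, 264 and 344 and Fabp4, a fatty acid carrier also found in endothelium, 152, 331, 419 and 722, both higher in libraries 3 and 4 than in 1 and 2. Other products of fat cells did not share this order, as Cfd (adipsin) had 8.11, 49.00, 19.3 and 24.2 reads and was highest in library 2, and Lpl was highest in library 1. Fabp4 had a spread of 0.93, and 1.01 as trend-adjusted value.

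Of the chondrocyte list all 12 genes were listed. Prg4 was the highest member. Comp, a matrix protein of cartilage and tendon, had 64137, 64328, 64621 and 57212 normalised reads, with library 4 somewhat below the others. Chad (chondroadherin) had 5395, 7047, 5999 and 3342 and the regulator gene Sox9 2061, 2113, 3323 and 2145. Col2a1, the main collagen of cartilage, had 4740.3, 2599, 1936 and 3492, but Acan (aggrecan) had 143, 214, 148 and 265. The genes of growth plate cartilage were uneven. Col10a1, of hypertrophic chondrocytes, had 283, 91.6, 12.9 and 2.104 normalised reads, Col9a1 315, 119.8, 57.9 and 173 and Matn3 (matrilin 3) 287, 88.9, 54.02 and 70.5. All 3 were highest in library 1, and Col10a1 had a spread of 2.89. The median spread of the chondrocyte genes was 0.43 in the wild type and 0.61 in the ANXA5 knockout, where all ranked genes had 0.152. The mean deviation of the list was 0.46, 0.20, -0.30 and -0.36 in libraries 1 to 4. It weighs each member alike, and the part of Col10a1 in it was not tested. The summed level had another order, with 6807, 9887, 6875 and 7208 ppm, lowest in library 1 and highest in library 2.

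Contractile and pericyte genes, 16 of 16 listed, had a summed level of 574 ± 66.3 ppm. Acta2, the smooth muscle actin that also marks activated fibroblasts, had 396, 368, 342 and 405 normalised reads, at 22.2 ppm per length. Tagln (transgelin) had 21.7, Cnn1 (calponin) 12.4, Lmod1 3.61 and Actg2 5.44. Cspg4 (NG2), of pericytes, had 2188, 3064, 5453 and 4702 and Notch3, of mural cells, 96.2, 169, 387 and 599. Both were lowest in library 1, and Notch3 had a spread of 1.18, against 0.93 as trend-adjusted value. Myh11, the smooth muscle myosin, had 40.6, 56.3, 77.2 and 193, with library 4 apart.

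**Figure D3:**
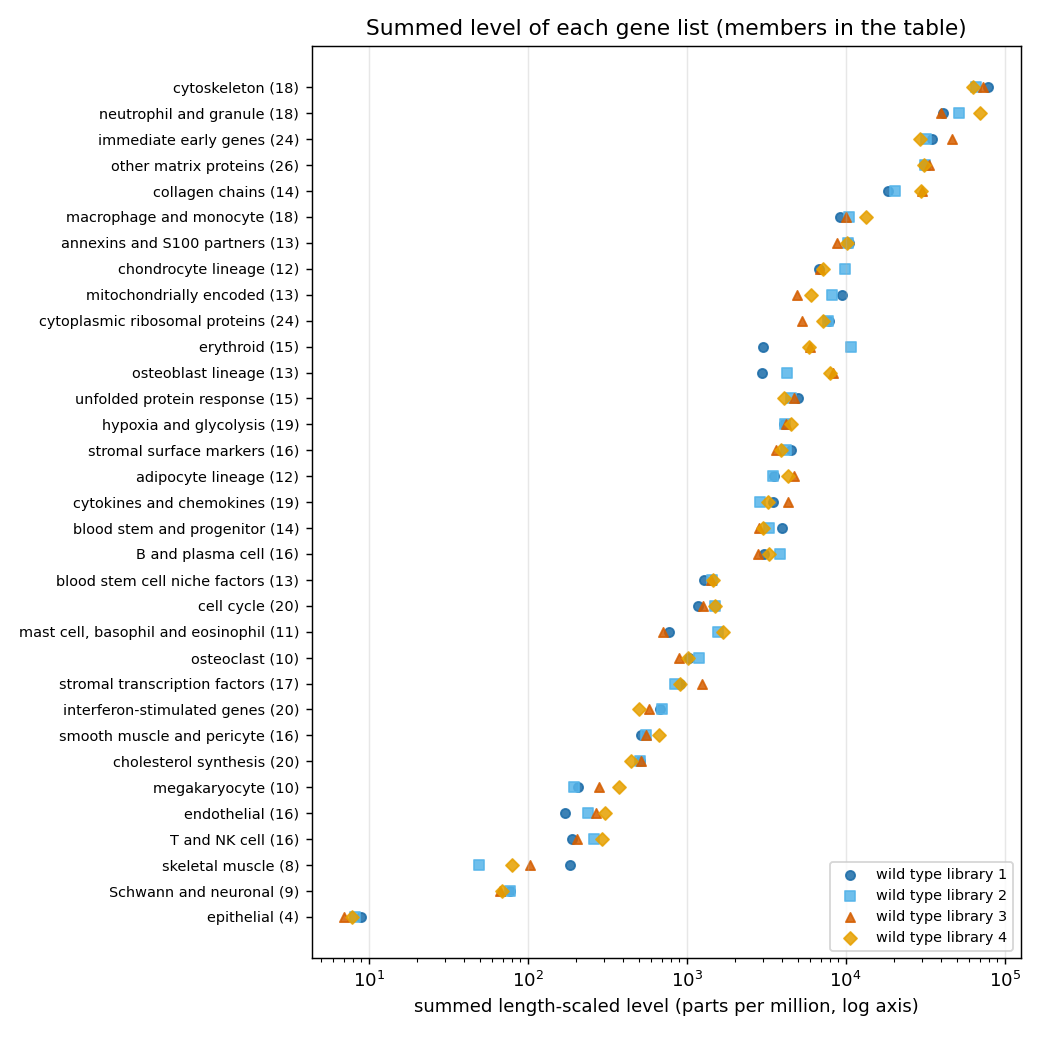
Summed length-scaled level (ppm, log axis) of the listed members of each gene list in each wild type library, with the number of members in brackets; each point is 1 library. The 5 markers, the sex-linked genes and the reference genes are not drawn. Among the lists drawn, cytoskeletal, neutrophil and immediate early genes formed the highest sums, and epithelial genes the lowest at about 8 ppm.

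Blood cell genes were led by those of neutrophils. All 18 genes of the list were present and summed to 50634 ± 14258 ppm, 5.06% of the length-scaled total, with 40738, 51621, 39739 and 70440.0 in libraries 1 to 4. All 18 had their highest value in library 4, against 25.1% of ranked genes. Primary granule genes, made by promyelocytes, were included: Mpo (above), Elane (neutrophil elastase) with 8411, 10073, 10302 and 20665 normalised reads, and Prtn3 (proteinase 3) with 3474, 3946, 3182 and 5856. For Elane the first 3 libraries lay together and library 4 was far above them. Secondary granule genes, made by later stages, were higher. Ngp had 108245, 131112, 121223 and 171254, Ltf (lactoferrin) 67039.9, 79415, 85991 and 112724 and Camp (cathelicidin) 19673, 25247, 16219 and 40272. Per length these 3 had 13992, 3211 and 4301 ppm, against 1666 for Mpo, 1608 for Elane and 305 for Prtn3. Lcn2 (lipocalin 2) had 14864, 18948, 16036 and 27138. The calprotectin genes S100a9 and S100a8 had 43680.1, 55613, 41021 and 83136 and 27216, 33908, 20196 and 51637. Library 3 was lowest in Camp, S100a9 and S100a8, and library 1 in Ngp and Ltf. Markers of mature neutrophils were lower per length, with 112 ppm for the surface gene Ly6g and 45.3 ppm for the chemokine receptor gene Cxcr2. Their normalised reads were 682, 759, 662 and 1167, and 993, 1134, 907 and 1248. Cebpe, the factor that drives secondary granule genes, had 567, 709, 860.4 and 1804 and the largest spread of the list, 0.72. The deviation of the list was -0.31, -0.05, -0.18 and 0.54 in libraries 1 to 4, and -0.39, -0.07, -0.06 and 0.52 as trend-adjusted values. The median spread of the same genes was 0.38 in the wild type and 0.23 in the ANXA5 knockout.

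Promoters of 3 abundant neutrophil genes are shown, taken from the list in order of mean normalised reads. They had their highest value in the same library, as had all genes of the list. The sequences are the 250 bases before the RefSeq gene start, from RefSeq on the build GRCm38.p6 (the submitters used another build), 5′ to 3′ on the strand of the gene. Capitals mark matches of TTGCNNAA, a motif with the shape of a C/EBP site, searched on both strands with N as any base. Ngp lies at chr9:110419558-110419807 on the plus strand, Ltf at chr9:111019042-111019291 on the plus strand and S100a9 at chr3:90695722-90695971 on the minus strand.
Ngp: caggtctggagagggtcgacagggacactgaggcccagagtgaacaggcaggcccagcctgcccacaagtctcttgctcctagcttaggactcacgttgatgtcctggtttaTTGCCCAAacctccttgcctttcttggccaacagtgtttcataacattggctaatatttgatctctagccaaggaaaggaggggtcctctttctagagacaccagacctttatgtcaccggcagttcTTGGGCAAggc
Ltf: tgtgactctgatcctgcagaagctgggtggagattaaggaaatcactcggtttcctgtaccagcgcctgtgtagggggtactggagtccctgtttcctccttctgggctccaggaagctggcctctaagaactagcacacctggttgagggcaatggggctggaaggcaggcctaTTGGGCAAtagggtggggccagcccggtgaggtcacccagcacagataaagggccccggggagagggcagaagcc
S100a9: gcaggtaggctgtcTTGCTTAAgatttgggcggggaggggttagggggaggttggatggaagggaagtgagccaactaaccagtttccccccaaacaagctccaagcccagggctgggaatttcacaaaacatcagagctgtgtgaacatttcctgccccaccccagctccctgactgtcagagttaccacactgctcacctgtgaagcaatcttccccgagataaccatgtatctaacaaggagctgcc
Ngp held 2 matches, Ltf 1 and S100a9 1. Of the 16 neutrophil genes with a promoter sequence, 7 held at least 1 match (43.8%), against 1 of 19 immediate early genes and 9.56% of all 32851 promoters of the same length. The motif was chosen after several were looked at in about 15 of these promoters, so the count is not independent of that choice. The list counts are of genes with a match in any of their promoters, while the share of all promoters counts single sequences. These shares are thus not in the same unit. A match is a run of letters, and binding was not measured.

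Macrophage and monocyte genes came next among blood cells by summed level, with all 18 listed and 10834 ± 1847 ppm, most of it from Lyz2. Granulocytes also express Lyz2, and without it the sum lay below that of the erythroid list (6421 ppm). Lyz2 had 65737, 72607, 75739 and 105626 normalised reads, highest in library 4, where 11 of the 18 genes were highest, against 25.1% of ranked genes. Cd74, the chain that assembles with class II antigen-presenting molecules, had 10586, 12859.8, 11539 and 12457. Ptprc, which encodes CD45 and marks nearly all blood cells, had 4312, 4857, 4315 and 4537 with a spread of 0.08. Ptprc was nearly level, unlike the neutrophil genes. The receptor gene Csf1r had 2134, 2155, 2270.0 and 2486, Itgam (CD11b) 1447, 1732, 2042 and 2339.7, Cd68 1009, 912, 979 and 1162 and Adgre1 (F4/80) 351, 362, 467 and 526. The complement gene C1qc, of tissue macrophages, had 491, 502, 531 and 529 and a spread of 0.06. Aif1 and Fcgr1 were the lowest members, with means of 68.2 and 57.2.

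Erythroid genes were lowest in library 1 in 15 of 15 cases, against 32.1% of ranked genes, and highest in library 2 in 14 of 15, against 16.3%. Their sum was 3040.3, 10758, 5997 and 5888 ppm in libraries 1 to 4. The haemoglobin gene Hbb-bs had 5977, 23601, 13317 and 13303 normalised reads and Hba-a1 5112, 19988, 11260.1 and 11188. Hba-a1 has a near-identical copy, Hba-a2, which had 1576, 5808, 3304 and 2869.9, and how reads were divided between them is uncertain. Alas2, which starts haem synthesis in red cell precursors, had 884, 3896, 2962 and 1981 and Slc4a1, the band 3 anion exchanger of red cells, 1796, 7594, 7539 and 4747. Slc4a1 was as high in library 3 as in library 2, unlike the globins. Klf1 and Epor, expressed in precursors, had smaller spreads of 0.29 and 0.38, with 738, 1166, 929.9 and 1078 and 259.6, 497, 379 and 370.3. Ahsp was not in the table. The median spread of the list was 0.61 in the wild type and 0.23 in the ANXA5 knockout. Trend-adjusted deviations were -0.82, 0.57, 0.23 and 0.03, close to the unadjusted -0.79, 0.58, 0.15 and 0.05.

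Genes of B and plasma cells summed to 3268 ± 463 ppm, with 16 of 16 listed. Ighm, the heavy chain of IgM, had 10089, 14040.3, 13079 and 13671 normalised reads and Igkc, the constant part of the kappa chain, 5319.7, 6570.1, 4039.8 and 6039.7. Cd79a, of the B cell receptor complex, had 2183, 3252, 2698 and 2737. Ighm and Cd79a were lowest in library 1, and Igkc was lowest in library 3. Jchain, of secreted antibodies, had 1076, 1038, 585 and 930.0. Single immunoglobulin genes were far less even than these. Of 165 immunoglobulin genes listed, 31 were ranked, and their median spread was 0.88 against 0.190 over all ranked genes. The constant genes Ighg2c and Ighg2b had 5.79, 251, 0 and 392 and 298, 50.8, 86.2 and 769, and the variable segment Igkv9-124 had 10.4, 187, 11.6 and 101. Libraries 1 to 4 were the highest in 4, 11, 5 and 11 of the 31, against 30.8%, 16.3%, 27.7% and 25.1% of ranked genes. Summed over all 165, the reads were 27324, 34728, 24619 and 31086. Variable segments resemble each other, so reads of single segments are uncertain.

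Other blood lineages were smaller. T and NK cell genes summed to 237 ± 48.4 ppm. Their highest member, Nkg7, is a granule gene also found in myeloid cells, and had 623, 769, 689 and 1483 normalised reads, highest in library 4. The T cell genes Cd3e and Cd4 had means of 72.1 ± 17.6 and 175 ± 46.8, and Ncr1, of NK cells, 29.2. Genes of mast cells, basophils and eosinophils summed to 769, 1571, 704 and 1689 ppm in libraries 1 to 4. The eosinophil granule genes Prg2 and Epx had 1866, 5470.4, 1577 and 5576 and 823, 1791, 689 and 2334, both high in libraries 2 and 4 and low in 1 and 3. Ear6, an eosinophil ribonuclease, had 54.5, 224, 16.7 and 203 and a spread of 1.74. Prss34, a basophil protease, had 2864, 3687, 2965 and 5027. Megakaryocyte genes summed to 208, 195, 279.8 and 374 ppm, with 8 of 9 ranked members highest in library 4, against 25.1% of ranked genes. The platelet chemokine genes Ppbp and Pf4 had 447, 213, 644 and 878 and 268, 239.5, 299.7 and 588, and the integrin gene Itga2b 1015, 1039, 1597 and 1438. Ppbp was lowest in library 2.

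Genes of blood stem and progenitor cells overlapped with stroma. Cd34, which is also on stromal and endothelial cells, had 49807, 33427, 36890.2 and 26996 normalised reads, highest in library 1 and lowest in library 4. Procr had 3283, 2884, 5341 and 3828. Genes that are more specific to progenitors were lower: Myb had 1366, 1762, 1641 and 1979.9, Kit 630.3, 890.1, 1076 and 1268 and Flt3 196, 255, 209.6 and 257, and Slamf1 had a mean of 22.1. Kit was lowest in library 1 and highest in library 4, the reverse of Cd34. In the osteoclast list Ctsk, a protease gene that stroma also uses, had 8738, 9221, 7373 and 8511 and Acp5 1779, 2624, 1212 and 1829, while Calcr, the calcitonin receptor of mature osteoclasts, had 2.72.

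Genes of proliferation were uneven. Of 20 cell cycle genes, 15 were highest in library 4, against 25.1% of ranked genes, and 15 lowest in library 1, against 32.1%. Mki67 had 2213, 3639, 3021 and 3626 normalised reads and Top2a 2501, 3206, 2791 and 3015. The replication gene Mcm6 had 4059, 4738, 4528 and 5269.6 and Rrm2, of nucleotide synthesis, 3079, 4268, 3808 and 4147. Bub1, of the spindle checkpoint, had 384, 444, 372 and 446. The deviations of the list were -0.23, 0.09, -0.09 and 0.22, and -0.26, 0.08, -0.06 and 0.24 as trend-adjusted values. In the same libraries the neutrophil deviations were -0.31, -0.05, -0.18 and 0.54 and the megakaryocyte deviations -0.35, -0.56, 0.23 and 0.68, and the part of either in the cell cycle values was not tested.

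Endothelial genes were all listed, 16 of 16, at a low summed level of 172, 238, 269 and 306 ppm in libraries 1 to 4. Of these, 15 were lowest in library 1 (against 32.1% of ranked genes) and 15 highest in library 4 (against 25.1%), and Tek was the exception in both. Tek, the receptor Tie2 that some stromal and myeloid cells also carry, had 3159, 1931, 2947 and 1888 normalised reads. Cdh5 (VE-cadherin), which defines endothelial junctions, had 25.5, 94.4, 143 and 199.9 and Cldn5, a tight junction protein, 37.1, 152, 235 and 299.8. Kdr (VEGF receptor 2) had 205, 573, 574 and 721 and Pecam1 (CD31), also of platelets, 374, 649.7, 588 and 764. Each of these genes was lowest in library 1, with library 4 at the top. Stab2, of sinusoidal vessels, had 110.1, 321, 777 and 787, Plvap, of fenestrated vessels, 681, 1320.2, 1395 and 1907 and Vwf, also of platelets, 149, 195, 433 and 681. Emcn had 27.8, 90.7, 60.4 and 98.9 and Robo4 30.1, 98.9, 156 and 184. The median spread was 0.81, with 6 of 16 genes at 1 or more, against 0.679% of ranked genes. In the ANXA5 knockout the median of the same genes was 0.42. Deviations were -1.09, 0.05, 0.33 and 0.70, and -1.005, 0.09, 0.26 and 0.66 as trend-adjusted values.

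Skeletal muscle genes followed another order. Of 10 genes 8 were listed, and the satellite cell genes Pax7 and Myod1 were not in the table. Acta1, the actin of skeletal muscle, had 1224, 259.5, 626 and 559 normalised reads, Ckm (muscle creatine kinase) 248, 30.8, 159 and 92.6 and Myh4, a fast myosin, 123, 8.17, 63.02 and 7.36. Library 1 was highest in all 3, with library 3 next. Myh1, another fast myosin, had 55.6, 4.54, 72.02 and 11.6, highest in library 3. The sum of the list was 184, 49.2, 103 and 79.7 ppm, a small share of the total, and its deviations of 1.10, -1.04, 0.37 and -0.43 were hardly altered by the trend adjustment (1.11, -1.02, 0.41 and -0.50). Genes of Schwann cells and neurons summed to 72.5 ± 5.55 ppm, and Sox10 was not in the table. Of 8 epithelial genes 4 were listed, without Krt8, Krt5, Krt14 and Cldn4, and their sum was 7.99 ± 0.809 ppm. Epcam and Krt18 had means of 20.4 and 11.9.

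Immediate early genes, which cells transcribe within minutes of a stimulus or of handling, were among the most abundant of all. All 24 were listed and summed to 35722 ± 7595 ppm, 3.57% of the length-scaled total, with 34896, 31831, 46629 and 29535 in libraries 1 to 4. Of these, 22 were highest in library 3, against 27.7% of ranked genes. Fos had 155609, 143428, 197590.3 and 110441 normalised reads, Junb 107063, 91319.9, 149558 and 105485 and Jun 61847, 50344, 80389.9 and 48841. Egr1, a zinc finger factor, had 130205, 110647, 177339 and 106628 and Zfp36, which destabilises cytokine messages, 42650.0, 43203, 78943 and 41846. In each of these library 3 stood above the other 3, and for Zfp36 the other libraries lay together. Fosb had 9406, 11274, 38962 and 20102, Fosl2 2058, 2337, 7215 and 6529.9 and Klf4 5863, 5626, 15492 and 9371. These 3 were also higher in library 4 than in libraries 1 and 2. Klf2 had 11243, 10462, 22833 and 10134, Jund 22347, 22123, 36565 and 23085 and Egr2 3313, 3034, 3861 and 3401, the last with a spread of 0.14. The deviations were -0.16, -0.28, 0.49 and -0.05, and -0.09, -0.24, 0.45 and -0.12 as trend-adjusted values. The largest spread was that of Fosl2, 0.95, against 0.35 in the ANXA5 knockout.

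Promoters of 3 AP-1 genes are shown, taken from the list in order of mean normalised reads. They had their highest value in the same library, as had most genes of the list. Egr1, which was higher than Junb and Jun, was passed over by the rule. That rule took genes with 1 promoter sequence and skipped 1 chromosome. They are given as above, with capitals for TGACG, the core shared by CRE-like sites, searched on both strands. Fos lies at chr12:85473640-85473889 on the plus strand, Junb at chr8:84978749-84978998 on the minus strand and Jun at chr4:95052223-95052472 on the minus strand.
Fos: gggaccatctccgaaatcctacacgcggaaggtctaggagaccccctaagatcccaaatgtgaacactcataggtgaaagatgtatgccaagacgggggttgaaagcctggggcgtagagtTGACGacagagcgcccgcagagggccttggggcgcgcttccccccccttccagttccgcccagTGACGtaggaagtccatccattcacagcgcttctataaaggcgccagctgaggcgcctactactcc
Junb: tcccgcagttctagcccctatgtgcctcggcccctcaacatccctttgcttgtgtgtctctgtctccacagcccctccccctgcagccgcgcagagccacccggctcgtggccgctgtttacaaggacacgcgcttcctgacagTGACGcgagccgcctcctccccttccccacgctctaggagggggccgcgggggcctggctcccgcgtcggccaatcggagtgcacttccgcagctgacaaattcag
Jun: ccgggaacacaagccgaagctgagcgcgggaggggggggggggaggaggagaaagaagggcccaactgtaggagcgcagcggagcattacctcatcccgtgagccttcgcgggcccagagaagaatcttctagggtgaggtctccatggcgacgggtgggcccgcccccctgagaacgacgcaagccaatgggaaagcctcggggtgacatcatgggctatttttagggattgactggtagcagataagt
Fos held 2 matches and Junb 1, while Jun held none in this window. Of 19 immediate early genes with a promoter sequence, 12 held at least 1 match (63.2%), against 0 of 16 neutrophil genes and 17.8% of all promoters. This motif was chosen in the same way, after matches had been seen, and genes and single promoters were counted as above.

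Genes of cytokines and chemokines, 19 of 20 listed without Ccl20, had a sum of 3511, 2878, 4315 and 3254 ppm. Complement C3 was the highest with 46405, 37885, 63545 and 48431 normalised reads and Cxcl1, a neutrophil attractant, had 13509, 8752, 16172 and 11305. Library 3 was highest in both, as in 10 of the 16 ranked members, against 27.7% of ranked genes. Il1b had 4138, 4791, 5424 and 5541, Il6 1809.9, 1377, 1996 and 1301, Ccl2 1499, 1627, 2388 and 2357 and the prostaglandin enzyme gene Ptgs2 5861, 3521, 6634 and 3419. Il33, an alarmin of stromal nuclei, had 2410.1, 1493, 2085 and 1012, and Csf2 a mean of 11.8. Interferon-stimulated genes summed to 615 ± 93.6 ppm. Of their 19 ranked members 13 were lowest in library 4, against 28.5% of ranked genes. Ifit1 had 691, 732, 739.5 and 302, with library 4 apart, Irf7 1531, 1687, 1679.7 and 1227 and Rsad2 718, 1667, 1165 and 676.

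Ribosomal protein and mitochondrial genes were lowest in library 3. All 24 cytoplasmic ribosomal protein genes of the list had their lowest value there, against 23.2% of ranked genes. Rplp0 had 12292, 11999.7, 10076 and 12678 normalised reads, Rpl4 12696, 11671, 9379.8 and 10339, Rps14 4546, 4177, 2427 and 4386 and Rpl27 1228, 1288, 767 and 1403. The deviations were 0.17, 0.11, -0.38 and 0.11, and 0.07, 0.07, -0.23 and 0.09 as trend-adjusted values. Mitochondrially encoded genes summed to 9419.8, 8236, 4909 and 6084 ppm, and 10 of 11 ranked members were highest in library 1, against 30.8% of ranked genes. The ribosomal RNA mt-Rnr2 had 34212, 29681, 15877 and 26796 normalised reads, mt-Co1 22398, 17527, 12250.4 and 13272 and mt-Cytb 18293, 15839.5, 10852 and 11570.2. Their deviations of 0.35, 0.15, -0.36 and -0.15 became -0.05, -0.03, 0.03 and 0.04 once the GC and length trend was removed. The mitochondrial genes were thus level between libraries after that step, which fits a line. Their median GC content was 36.0%, at the low end of the ranked genes. In the bin of lowest GC content (median 39.6%) the deviations were only 0.11, 0.07, -0.06 and -0.12. Whether the trend accounts for the larger mitochondrial deviations was not tested. For the neutrophil, erythroid, endothelial and muscle lists the highest and the lowest library were the same with and without the trend removed. Other lists changed. The lowest library went from 3 to 1 for B and plasma cell genes and for mast cell, basophil and eosinophil genes. It went from 4 to 1 for T and NK cell genes, and the highest went from 3 to 4 for the collagen chains. Genes of cholesterol synthesis, of the unfolded protein response, and of hypoxia and glycolysis were nearly level, with deviations between -0.09 and 0.07.

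**Figure D4:**
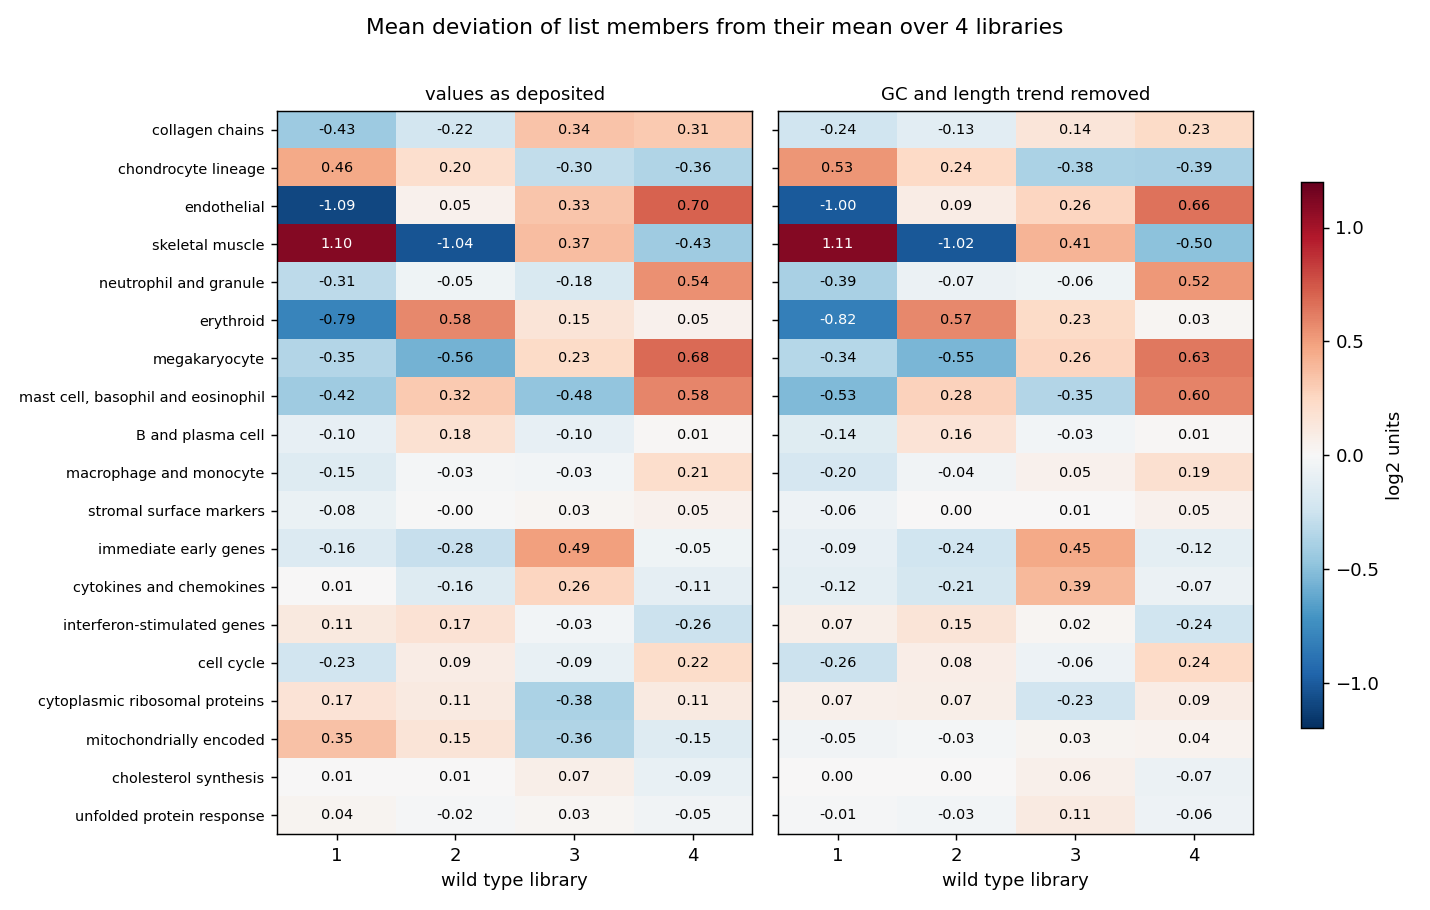
Mean deviation (log2 units) of the ranked members of each list from their mean over the 4 wild type libraries, on the deposited values (left) and with the GC and length trend of each library removed (right); each cell is 1 list in 1 library, red above and blue below the mean. The endothelial row runs from -1.09 in library 1 to 0.70 in library 4 and the muscle row from 1.10 in library 1 to -1.04 in library 2, while the mitochondrial row fades to between -0.05 and 0.04 on the right.

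Most genes differed little between the wild type libraries. The median spread of the 12952 ranked genes was 0.190, with quartiles of 0.117 and 0.298. The median coefficient of variation was 13.1%, where counting noise alone would give 3.85%. Over the ANXA5 knockout libraries of the same table the median spread was 0.152, and over the 3 ANXA2 knockout libraries 0.195 in 12944 genes. By abundance, the median spread was 0.33 in the 1152 genes with means from 50 to 100 normalised reads and 0.20 in the 6492 from 100 to 1000. It was 0.15 in the 4943 from 1000 to 10000 and 0.21 in the 365 at 10000 or more. The most abundant genes were thus not the most even ones.

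A spread of at least 1 was reached by 88 genes, 0.679% of those ranked. With library 2 left out the number was 143. Vwf lay just inside this limit at 1.01 and Itpr3, an intracellular calcium channel gene, just outside at 0.999. Xist, the RNA that silences one X chromosome in female cells, had the largest spread, 5.73. It had 1999.9, 2186, 1.29 and 1.05 normalised reads in libraries 1 to 4, so libraries 3 and 4 held 1 read each. Y-linked Ddx3y, Eif2s3y, Kdm5d and Uty were not in the table. It lists only genes with reads in every wild type and ANXA5 knockout library, wild type library 3 aside. Of the X-linked genes that escape silencing, Kdm6a had 1852, 1924, 1145 and 988 and Eif2s3x 714, 653, 406 and 381. Both were lower in libraries 3 and 4, as was Ddx3x with 11744, 10718, 8446 and 6255, but Kdm5c with 1657, 2220.3, 2603 and 2637 was not. The spread of Xist was 4.14 over the ANXA5 knockout libraries and 0.93 over the ANXA2 knockout libraries. In the wild type, Xist parted libraries 1 and 2 from 3 and 4. The closest pairs and the sign of the correlation with GC content divided the libraries in the same way. The labels do not give sex, and a tie of these divisions to sex or source was not tested.

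The rest of the 20 most variable genes were from several sources. Immunoglobulin genes accounted for 7 of them, among these Ighg2c, Igkv9-124, Igkv4-59, Ighg2b, Ighv10-1, Igkv1-117 and Ighv5-4. Ighg2c had 0 in library 3, and its spread of 4.16 depends on the pseudocount. Mrgprg, an orphan receptor gene of the Mas-related family, had 1859.7, 93.5, 6.43 and 17.9 normalised reads, and Cysltr1, a leukotriene receptor gene, 555, 106, 100.3 and 27.4. In both library 1 was far above the others. C7, a late complement component secreted by stromal cells, had 449.6, 281, 13827 and 5361. C7 and Ski had the highest means of the 20. Adcy1, an adenylyl cyclase gene, had 2.32, 16.3, 268 and 71.5 and 9330159F19Rik, a gene without a name, 15.1, 14.5, 204 and 94.7. Col4a6, a basement membrane chain, had 27.8, 37.2, 284 and 139. These 4 genes were all highest in library 3, with library 4 next. Akr1c14, a steroid dehydrogenase gene, had 241, 191, 16.7 and 32.6, high in libraries 1 and 2. Ski, a repressor of TGF-beta signalling, had 1854, 3233, 16412 and 13599.6 normalised reads and a spread of 1.55, and 1.38 as trend-adjusted value. Tubb1, the tubulin of platelets, had 158, 22.7, 286 and 128. Ear6, Myh4 and Col10a1, given above, completed the 20.

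At means of 1000 or more, 11 genes had a spread of at least 1. In 9 of them, all but C7 and Xist, libraries 3 and 4 lay above libraries 1 and 2 and library 1 was the lowest. They were Myh9, Ski, Irf2bp2, Abca2, Col4a5, Sptb, Phf2, Wdfy4 and Epn1. Once the GC and length trend was removed, Abca2, Wdfy4, Epn1, Myh9, Sptb and Col4a5 no longer reached a spread of 1. Their trend-adjusted values ran from 0.778 for Abca2 to 0.949 for Col4a5. Ski, Irf2bp2 and Phf2 still had a spread of at least 1. Irf2bp2, a transcriptional corepressor gene, had 859.8, 1495, 5337 and 5260.1 normalised reads and Phf2, a histone demethylase gene, 261, 605, 1915 and 1859. Col4a5, a basement membrane chain, had 713, 891, 3249 and 2390.2 and Sptb, the spectrin of red cells, 304, 1129.7, 1776 and 1600.1. Over all 88 genes, 36 were above their own mean in libraries 3 and 4 and below it in libraries 1 and 2, 40.9% against 21.5% of ranked genes. The opposite held for 12, 13.6% against 16.3%. The library farthest from the other 3 was library 1 in 49 of the 88, library 2 in 9, library 3 in 18 and library 4 in 12. Among all ranked genes these places went to 34.4%, 12.9%, 26.9% and 25.8%. The 88 genes had a median GC content of 53.7% against 49.7% over all ranked genes, and 61 of them still had a spread of at least 1 once the GC and length trend was removed.

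The knockout libraries, which played no part in the ranking, gave the same genes a larger spread than the ranked genes as a whole. The 88 genes were less abundant, with a median of 152.5 normalised reads against 741.7 over all ranked genes. Genes of like abundance were not compared. Over the 4 ANXA5 knockout libraries the median spread of the 88 genes was 0.638, and 86 of them lay above the median of 0.152 for all ranked genes. A spread of at least 1 was reached there by 21 of the 88, against 0.324% of ranked genes, or 42 in all. Of the 20 most variable wild type genes, 13 had a spread of at least 1 in the ANXA5 knockout, among them Xist, C7 with 2.03 and Mrgprg with 1.93. Sptb and Myh9, also among the 88, had 0.07 and 0.25 there. Across 12952 genes the Spearman correlation of the spread in both genotypes was 0.48. This describes genes that share size factors from 1 table and whose spread depends on abundance, and a correlation across genes is not a test.

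**Figure D5:**
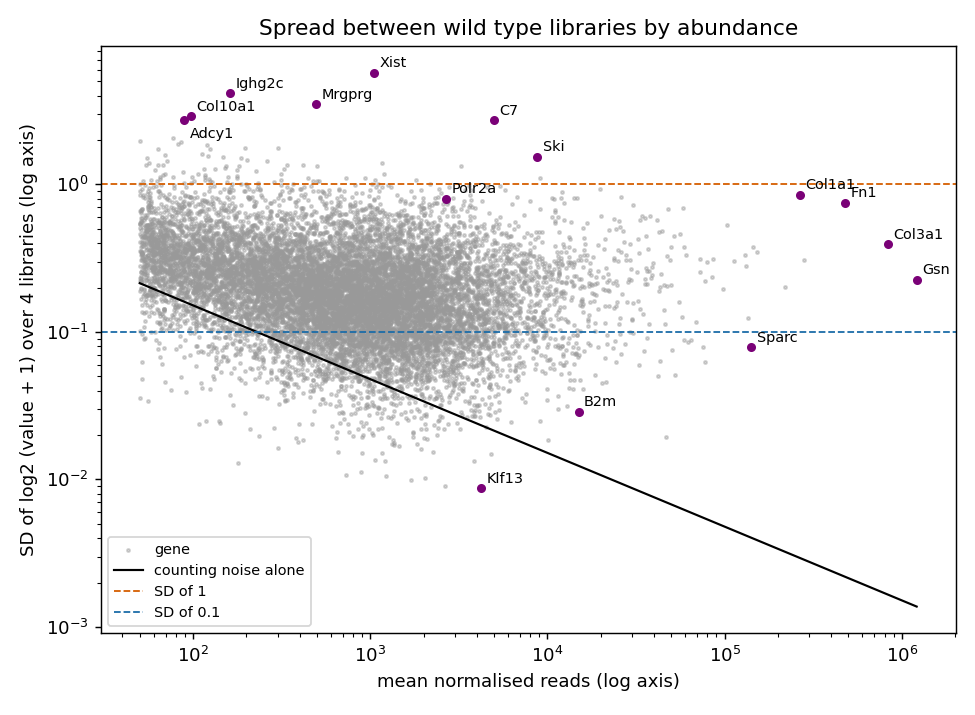
Spread (SD of log2 (value + 1) over the 4 wild type libraries, log axis) against mean normalised reads (log axis) of the 12952 ranked genes; each grey point is 1 gene, named genes are purple, the black line is the spread from counting noise alone and the dashed lines are the limits of 1 and 0.1. Xist stands at the top, Klf13 and B2m lie low, and Col1a1 and Fn1 lie high among the most abundant genes.

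A spread of at most 0.1 was found in 2421 genes, 18.7% of those ranked. Cnpy3, a chaperone gene, lay just inside this limit and Capg, an actin-capping gene, just outside, both at 0.10 after rounding. The 20 least variable genes had spreads from 0.0087 to 0.017 and means from 180.4 to 4835 normalised reads. Klf13, a zinc finger factor gene, had 4208, 4261, 4259.7 and 4228 normalised reads, Mfsd1, a lysosomal transporter gene, 2628, 2612, 2651 and 2622 and Exoc7, of the exocyst complex, 1699, 1693, 1696 and 1719. The 4 values of each of these genes were within a few per cent of each other. Rtf2 had 2038, 2031, 2024 and 2058 and Polr3b, a subunit of RNA polymerase III, 739, 729.5, 734 and 727. Nap1l4, a histone chaperone gene, and H13, a signal peptide peptidase gene, had 3851 and 4835 on average. The other 13 were Dym, Nipa2, Tceanc2, Rnf41, Dctn4, Ccz1, Chfr, Arl8a, Coq8b, Arfgap1, Rbak, BC005624 and Adsl. All 20 had a spread below that of counting noise alone, as had 794 genes in all (6.13%), so their order within the 20 carries no information at 4 libraries. In the ANXA5 knockout the spreads of the 20 ran from 0.035 to 0.30, and 18 lay below the median of all ranked genes. That of Klf13 was 0.30, the highest of the 20.

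Genes used as references in quantitative PCR were listed in 17 of 18 cases, and Rn18s was not in the table. B2m, the light chain of class I antigen-presenting molecules, had 15304, 14761, 14703 and 15179 normalised reads, Gusb (beta-glucuronidase) 2847, 2754, 2739 and 2868 and Sdha (succinate dehydrogenase) 7289, 6979, 7394 and 7211. Their spreads were 0.03, 0.03 and 0.04, the lowest of the list. Ywhaz and Tbp followed with 0.05 and 0.06. Actb had 0.12 and Gapdh 0.15, highest in library 4 in both cases. Hprt had 0.14, Ppia 0.24 and Eef1a1 0.16. Polr2a, the largest subunit of RNA polymerase II, was the least even with 0.80 and 1283, 1750.3, 3951 and 3697. Its spread was 0.67 with the trend removed and 0.12 in the ANXA5 knockout libraries. B2m was less even after that adjustment, at 0.30, whereas Gusb remained at 0.03.

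The annexins and their S100 partners, the families of the knockout targets, were listed in full, 13 of 13, and summed to 9958 ± 801 ppm. Anxa1 had 44175, 41215, 41009.7 and 42752 normalised reads, Anxa2 34081, 33100.0, 30866 and 32827 and Anxa5 27595, 25599, 23423 and 25498. All 3 were nearly level, with spreads of 0.05, 0.06 and 0.10. Per length Anxa1 and Anxa5 had 1873 ± 98.96 and 1854 ± 171 ppm, which do not differ beyond their spread, and Anxa2 had 1131 ± 80.03 ppm. S100a11 had 7897, 7154, 7681 and 9127. The least even members were Anxa11, with 1277, 1861, 3308 and 3819.9 and a spread of 0.73, and S100a4, with 1041, 1504, 786 and 1759 and 0.52. Anxa11 was low in libraries 1 and 2 and S100a4 in libraries 1 and 3.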

How the data were processed

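Processed tables and labels were used, and no reads. Per the labels, libraries were made from 8.7 ng of total RNA (RNeasy mini plus) using NEBNext modules. DESeq2, HTSeq, STAR, Trim Galore and the build GRCm39 are listed, without roles, in the submitters' processing notes. Tool versions, strand setting and annotation were not given in the sources used here, so reads of overlapping or antisense genes cannot be told apart. The signal the authors deposited is a read count divided by a size factor of the library. Multiplied by that factor, 100% of values gave whole reads within 0.001. The table held 412 genes at 0 in wild type library 3, and no gene at 0 in another library, so a gene that is not in the table may be unread in 1 library of either genotype only. No sample column was left out (0). The ANXA2 knockout columns were matched to their group only.

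Means, SDs and spreads (pseudocount 1, minimum mean 50) were computed with Python 3.11.15, numpy 2.4.6 and pandas 2.3.3 and tested on simulated data. R 4.3.3 with edgeR 4.0.16 gave TMM factors and dispersions only, because 1 group allows no test. Exon lengths, GC content and gene types came from GENCODE vM21 on GRCm38, another build than that of the submitters, which matched 19704 of 19801 identifiers (99.5%). Counting noise was taken as that of Poisson counts at the mean reads. Depth limits precision at low means, and the number of libraries, 4, limits that of every SD. The genes named were the 20 highest by mean and the 10 highest per length, the 20 most and 20 least variable, the 5 markers, and in each of 36 hand-made lists the 5 highest, the 2 lowest and the most variable member, with all reference and sex-linked genes, where they are described. Some of these genes are not reported here. Other list members, and the genes with a mean of at least 1000 and a spread of at least 1, were named after their values were seen. Members, lists and motifs were chosen with earlier results of these data known. Alternatives were other pseudocounts, minimum means and scalings, edgeR dispersion or the coefficient of variation as the measure of spread, longest transcripts as lengths, and leaving out each library. Removing the GC and length trend and leaving out immunoglobulin, sex-linked and muscle genes were added after the data were seen.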

Additional observations from a re-analysis of the deposited data

Results flagged for a closer look

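Of 279 named genes and lists, 17 had 1 library standing apart from the other 3 by the gap to its nearest neighbour relative to the whole range. Chance alone marks about 1 in 20 groups, and 17 of 279 is near that share. The named genes also include the 20 most variable ones, which were chosen by their spread. The items below are thus descriptions only. Library 3 stood above the others in Zfp36 (78943 normalised reads against 41846 to 43203), Jund (36565 against 22123 to 23085), Klf2 (22833 against 10134 to 11243) and Sox9 (3323 against 2061 to 2145). It also did so in the summed level of stromal transcription factors (1256 ppm against 845 to 907). That list includes Klf4, an immediate early gene given above, which was also highest in library 3. Of the 17 ranked members of the list, 5 were highest there, against 27.7% of ranked genes. The part of Klf4 in the sum was not tested. Library 4 stood above the others in Elane (20665 normalised reads against 8411 to 10302), Nkg7 (1483 against 623 to 769) and Ighv5-4 (208 against 19.7 to 24.5). It stood below them in Comp (57212 against 64137 to 64621), Ifit1 (302 against 691 to 739.5) and the summed level of cholesterol synthesis genes (448 ppm against 509 to 519). Library 1 stood above the others in Mrgprg (1859.7 normalised reads against 6.43 to 93.5), Cysltr1 (555 against 27.4 to 106) and Matn3 (287 against 54.0 to 88.9). Library 2 stood above them in the summed level of chondrocyte genes (9887 ppm against 6807 to 7208), of which Prg4 is the main part. Arl8a in library 4 (2227 normalised reads against 2271 to 2278) and Dctn4 in library 3 (1044 against 1062.5 to 1066) were marked too, although both are among the 20 least variable genes and differ by less than counting noise.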

How the results depend on the processing

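The number of genes with a spread of at least 1 (88) depended most on the minimum mean: it was 312 at a minimum of 10, 31 at 200 and 905 with none. Leaving out each library in turn gave 61 (without library 1, with 39 of the 88 among them) to 143 (without library 2). The other alternatives stayed within 1.5 times of it, from 73 to 89: TMM scaling gave 88, the size factors of the ANXA2 table gave 84, pseudocounts of 0.5 and 5 gave 89 and 75, the removed GC and length trend 74, and leaving out immunoglobulin, sex-linked and muscle genes 73. The median spread was 0.226 at a minimum of 10, 0.269 with none, and 0.166 to 0.201 with each library left out. Genes with a spread of at most 0.1 numbered 2523 to 3386 with 1 library left out. The share of reads in the 10 most abundant genes was 13.3 to 14.1% then. Of the 100 most variable genes, 91 were shared with a ranking by edgeR dispersion and 78 with one by the coefficient of variation. The size factors of the ANXA2 table changed the mean of 12944 ranked genes nearly alike, by -9.28 to -8.57%. Leaving out 1 library moved the mean of 19 of 243 named genes by over 1.5 times, and of 0 of 36 lists. With 4 libraries, a mean can pass this limit only if the library left out holds most of the summed value. Low libraries cannot be marked, and an uneven list can stay within the limit, as the erythroid list did (3040 to 10758 ppm). Without library 1 the mean fell from 494 to 39.3 normalised reads for Mrgprg, 97.3 to 35.5 for Col10a1, 197 to 77.9 for Cysltr1, and by a smaller factor for Ighv10-1, Myh4, Matn3 and Akr1c14. Without library 2 it moved so for Igkv9-124 and Xist. Without library 3 it fell from 4980 to 2031 for C7, 89.4 to 30.1 for Adcy1, and by a smaller factor for 9330159F19Rik, Col4a6 and Myh1. Without library 4 it fell from 69.2 to 22.9 for Ighv5-4, and by a smaller factor for Igkv1-117, Ighg2b, Ighg2c and Myh11. No paired analysis was possible because the values describe 1 group and no comparison was tested. Depth limits the low genes, and no spread was ranked below a mean of 50.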
